A study of Homo sapiens with 10 samples.

Results

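Melanoma cells that had acquired resistance to encorafenib plus binimetinib were compared with their sensitive parents in the lines of primary tumour origin, WM983A, WM278 and WM902B. The 6 libraries of these lines, chosen by the tumour stage in the sample labels, are part of 10 libraries in all. The other 4 belong to WM983B and WM1617, lines of metastatic origin from the same patients as WM983A and WM278, respectively. All lines carry the V600E form of BRAF. The sensitive cells were the original lines without inhibitor, and the resistant cells (E+B_RES) were selected by raising the combination from 1 nM to 200 nM within 3 to 5 months. Resistant cells were maintained in 200 nM of the combination, so the acquired state and the presence of drug cannot be told apart in these libraries. Each line and state is 1 library of poly(A)-selected RNA, read as single-end reads of 75 cycles, and held 13693922 to 16966008 estimated counts in the primary lines. Lines served as the replicates of the comparison, with each resistant library set against the sensitive library of its own line.

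Encorafenib inhibits the BRAF kinase and binimetinib inhibits MEK, the kinase directly below it. BRAF, MEK and ERK form a cascade through which growth factor receptors and mutant BRAF drive division, and active ERK induces its own inhibitors, including the DUSP phosphatases and the Sprouty and SPRED proteins. Known routes of melanoma cells out of this block include a return of ERK activity, signalling through other receptors or kinases, and loss of the melanocyte identity that SOX10 and MITF maintain.

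The melanocyte identity of the lines was checked first. The 8 melanocyte markers summed to 44942, 5558 and 42414 normalized counts in sensitive WM983A, WM278 and WM902B, and to 1309, 4858 and 3953 in their resistant libraries. A normalized count is the count divided by the library's scale factor, and 3 values in a row are given in the order WM983A, WM278 and WM902B throughout. The library labelled resistant WM983A stood apart. Its correlation of log2 counts across genes, a description in which genes are not independent replicates, was r = 0.776 with sensitive WM983A and r = 0.811 with sensitive WM902B, whereas resistant WM278 and WM902B correlated best with their own parents (r = 0.934 and 0.873). It held 9756 normalized counts of KRT7 and 11548 of KRT8, both keratins of simple epithelia, against 45.2 and 174.6 in sensitive WM983A. KRT7 was at most 354.4 in the other libraries, whereas KRT8 was also higher in resistant WM983B (118.3 in sensitive and 3323 in resistant cells) and was 1762 and 2283 in WM1617. MTND6P22, a pseudogene copy of a mitochondrial gene, had 596 counts in sensitive WM983A and 594 and 414 in the sensitive and resistant libraries of WM983B from the same patient, but 1 count in the library labelled resistant WM983A. For MTND4P12, another such copy, these 4 libraries held 1347, 1757, 1251 and 47 counts. The other 6 libraries held 0 to 3 counts of MTND6P22 and 15 to 970 of MTND4P12. For MTND4P12, sensitive and resistant WM278 held 896 and 970 counts, and WM1617 from the same patient held 63 and 127. This copy thus also differed between the lines of that patient. Both copies share reads with the mitochondrial genome, and these 4 genes were picked after their values were seen. Whether this library holds cells of the line on its label was not tested, so results are also given without the WM983A pair.

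Across the 3 lines, no gene of 17627 tested reached an adjusted p of 0.05 in edgeR's quasi-likelihood test with line as a block (0% called, smallest adjusted p = 0.538). At an unadjusted p of at most 0.05, 1484 genes passed. limma-voom also called 0 genes after adjustment, whereas DESeq2 called 308 higher and 307 lower. The study set a fold change of at least 2 and a p of at most 0.05, and with these limits applied here to the unadjusted p, 1169 genes (6.63%) differed, 702 higher (3.98%) and 467 lower (2.65%) in resistant cells. Without WM983A, 1726 of 18164 genes (9.5%) passed, 1083 higher (5.96%) and 643 lower (3.54%), and 723 of the 1169 were among them. That fit rests on WM278 and WM902B alone, so a smaller p in it is not stronger evidence than in the 3 lines. Without WM278 the excess of higher genes turned, with 647 higher and 699 lower of 17745, and without WM902B the counts fell to 349 and 286 of 18050. These counts over all genes are the background of the list counts given below for each line left out. In what follows, rose and fell mark genes past these unadjusted thresholds in the 3 lines together, none of which survived adjustment in edgeR.

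The lines shared only a small part of their changes. A gene was at least 2-fold higher in all 3 lines in 380 cases (2.16%) and at least 2-fold lower in 241 (1.37%), counts that rest on ratios alone with no test. For 1655 genes (9.39%) the ratio was at least 2-fold up in some primary line and at least 2-fold down in another. WM983A had 3116 genes at least 2-fold higher and 3425 lower, WM278 had 2183 and 1265, and WM902B had 2847 and 2102.

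**Figure D1:**
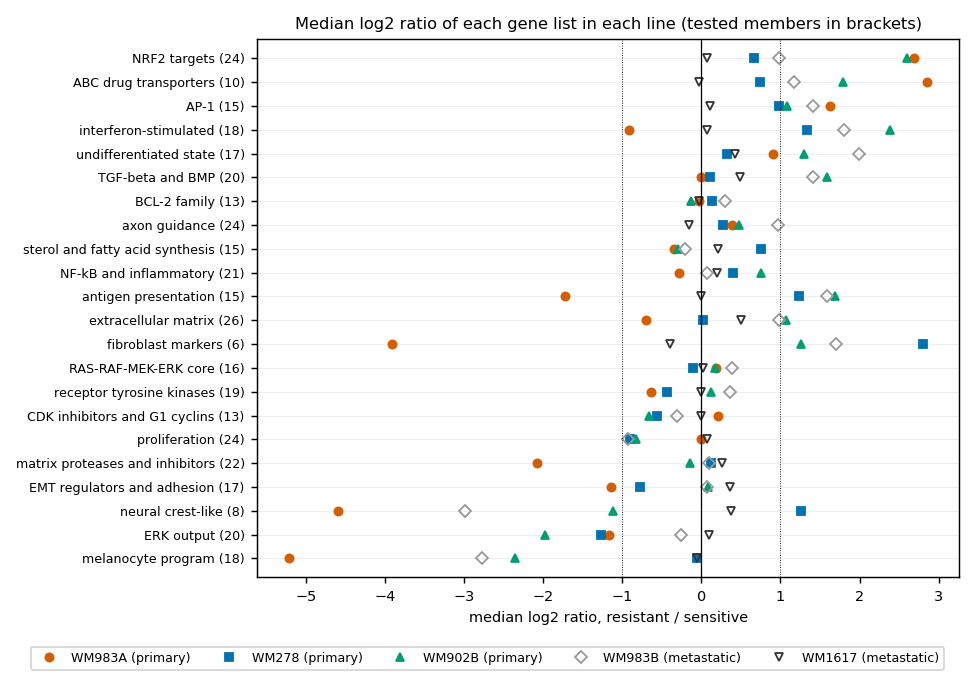
Median log2 ratio of resistant over sensitive for each gene list with at least 6 tested members (rows, number tested in brackets) in each line (symbols; filled for primary, open for metastatic lines); dotted lines mark 2-fold. NRF2 targets, ABC transporters and AP-1 lie right of 0 and ERK output left of 0 in all 3 primary lines, whereas the interferon and neural crest lists have medians on both sides of 0 and the melanocyte list is near 0 in WM278 and far below in WM983A and WM902B.

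Genes that were higher in every line were led by ALDH3B1 (ENSG00000006534, GRCh38 chr11:68008578-68029282, plus strand), an aldehyde dehydrogenase that oxidizes lipid-derived aldehydes. It had 307, 95.2 and 91.8 normalized counts in the sensitive and 2618, 672 and 845 in the resistant libraries. The 3 resistant libraries stood at 7.06-fold to 9.20-fold the level of their parents (log2 fold change 3.03 ± 0.249 (SE), unadjusted p = 0.000172, and 3.00 with unadjusted p = 0.000822 without WM983A). MAP3K8 (ENSG00000107968, GRCh38 chr10:30434021-30461833, plus strand), the kinase COT that can phosphorylate MEK without RAF, went from 16.1, 12.4 and 14.3 to 112, 189 and 203 normalized counts. It was higher by 6.98-fold, 15.3-fold and 14.2-fold (log2 fold change 3.50 ± 0.47 (SE), unadjusted p = 0.00131, and 3.86 with unadjusted p = 0.00142 without WM983A). CEBPD, a transcription factor of the acute phase and inflammatory response, had 108, 81.9 and 226 normalized counts in the sensitive and 632, 1869 and 3277 in the resistant libraries (log2 fold change 3.64 ± 0.508 (SE), unadjusted p = 0.00154). ABCC1, the drug efflux pump MRP1, had 463, 494 and 403 normalized counts in the sensitive and 1888, 1818 and 1188 in the resistant libraries, a close range in both states (log2 fold change 1.82 ± 0.237 (SE), unadjusted p = 0.00118, and 1.72 with unadjusted p = 0.00358 without WM983A).

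The remaining genes at the top of this direction were mostly low in the sensitive cells. PALM, a membrane-bound phosphoprotein of the cell cortex, had 13.0, 1.0 and 5.1 normalized counts in the sensitive and 564, 101 and 99.8 in the resistant libraries. TOX, a chromatin-binding factor of T cell development, had 6.0, 1.0 and 2.0 normalized counts in the sensitive and 125, 27.0 and 19.6 in the resistant libraries. Log2 fold changes of these and of the other protein-coding genes were PALM (5.27), TOX (4.06), ZFYVE28 (3.53), LDLRAD2 (2.19), TMEM59L (3.62), SPON2 (2.24), COLQ (3.47) and P2RY6 (3.75). SPON2, a matrix protein, was unequal between parents, with 6.0, 3.8 and 1079 normalized counts, yet was higher in each resistant library, with 43.9, 13.5 and 4616. P2RY6 encodes a receptor for UDP. Among the 15 genes there were also 3 long noncoding RNAs, C7orf69 (3.83), RP11-54O7.3 (5.13) and AC006273.5 (5.51). C7orf69 is listed by the annotation as antisense to PKD1L1, and in WM983A both of its libraries were at or under 3 counts, so that its ratio there cannot be read.

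**Figure D2:**
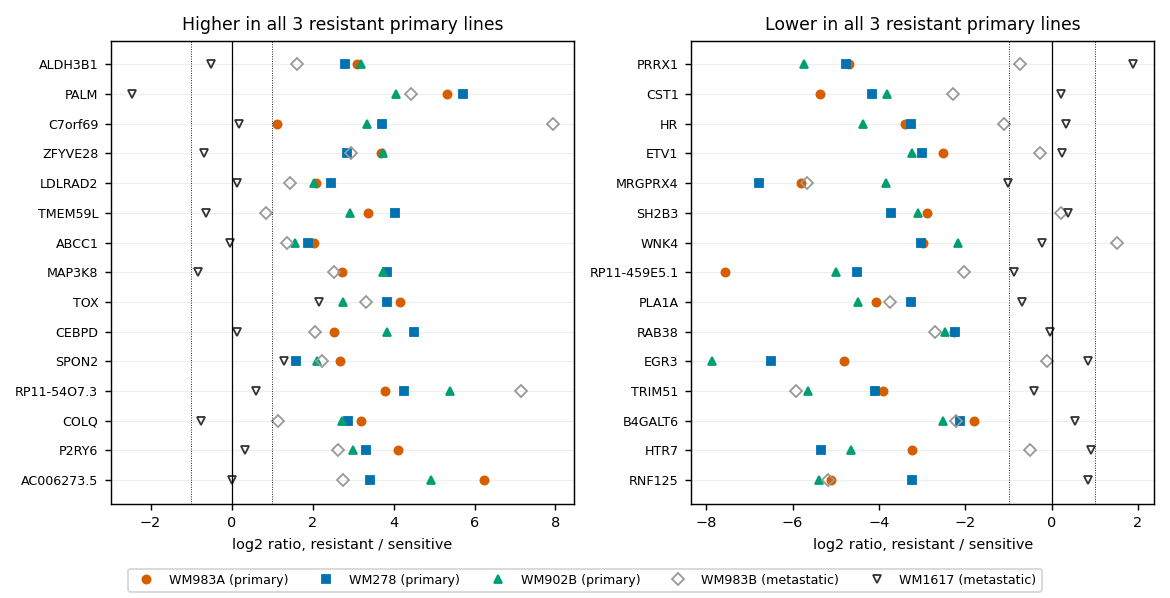
Log2 ratio of resistant over sensitive (x axis) in each line for the 15 genes with the smallest p in each direction among genes at least 2-fold changed in all 3 primary lines (rows); dotted lines mark 2-fold. Filled symbols, the primary lines, lie beyond 2-fold by the choice of the genes, and open symbols show WM983B and WM1617.

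Genes lower in every line were led by PRRX1 (ENSG00000116132, GRCh38 chr1:170662728-170739421, plus strand), a homeobox factor of mesenchymal cells, which had 293, 314 and 546 normalized counts in the sensitive and 10.4, 10.6 and 9.3 in the resistant libraries. All 3 resistant libraries were near 10 normalized counts, 28.2-fold, 29.6-fold and 59-fold below their parents (log2 fold change -5.18 ± 0.445 (SE), unadjusted p = 0.000208, and -5.36 with unadjusted p = 0.000755 without WM983A). SH2B3 (ENSG00000111252, GRCh38 chr12:111405923-111451623, plus strand), the adaptor LNK that restrains cytokine receptor signalling, had 5977, 11004 and 5375 normalized counts in the sensitive and 809, 833 and 629 in the resistant libraries (log2 fold change -3.24 ± 0.32 (SE), unadjusted p = 0.000374, and -3.41 with unadjusted p = 0.000882 without WM983A). ETV1 (ENSG00000006468, GRCh38 chr7:13891229-13991425, minus strand), an ETS factor whose protein is stabilized by ERK signalling, had 905, 2109 and 1289.9 normalized counts in the sensitive and 157, 264 and 136 in the resistant libraries (log2 fold change -2.93 ± 0.278 (SE), unadjusted p = 0.000314, and -3.13 with unadjusted p = 0.000537 without WM983A). EGR3, an immediate early transcription factor, had 637, 1139.7 and 1185 normalized counts in the sensitive and 22.0, 11.6 and 4.1 in the resistant libraries (log2 fold change -6.42 ± 0.814 (SE), unadjusted p = 0.00104). HTR7, a serotonin receptor, had 117, 431 and 612 normalized counts in the sensitive and 11.6, 9.7 and 23.7 in the resistant libraries. For each of these genes the highest resistant library lay below the lowest sensitive library. Their choice as lower in all 3 lines favours this, and the share of all genes without overlap was not counted.

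Other genes of this direction covered several roles. RNF125, a ubiquitin ligase, had 1188, 136 and 642 normalized counts in the sensitive and 33.5, 13.5 and 14.4 in the resistant libraries (log2 fold change -4.68 ± 0.604 (SE), unadjusted p = 0.00112). RAB38, a small GTPase of melanosome transport, was lower by 4.81-fold, 4.83-fold and 5.56-fold. HR, a corepressor of nuclear receptors, had 2685, 325 and 2868 normalized counts in the sensitive and 253, 32.8 and 139 in the resistant libraries. MRGPRX4, a G protein-coupled receptor, fell from 55.2, 319.9 and 13.3 to 0, 1.9 and 0 normalized counts. It was lower by at least 15.9-fold in WM983A and at least 4.3-fold in WM902B, bounds that set the resistant library at 3 counts. Log2 fold changes of the remaining 6 were CST1 (-5.13), WNK4 (-2.91), PLA1A (-4.50), TRIM51 (-4.99), B4GALT6 (-2.16) and RP11-459E5.1 (-7.25). Of these, CST1 is an inhibitor of cysteine proteases, WNK4 a kinase of salt transport, PLA1A a phospholipase and B4GALT6 an enzyme of glycolipid synthesis. All 30 genes of the 2 directions also passed without WM983A, as did 29 without WM278 and 29 without WM902B. Their choice as changed in all 3 lines largely fixed this, so it is no check on the WM983A library.

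Many transcripts that ERK activity induces were lower in the resistant cells. Of 20 tested members of this list, 11 fell and 0 rose, against 2.65% and 3.98% of all genes, and the median log2 fold change was -1.30 against 0.00 over all genes. The list medians were -1.17, -1.27 and -1.98 in the 3 lines. DUSP6, the phosphatase that removes the activating phosphates of ERK, had 2821, 3708 and 1899 normalized counts in the sensitive and 221, 1744 and 110.1 in the resistant libraries (log2 fold change -3.02 ± 0.778 (SE), unadjusted p = 0.0157, and -2.58 with unadjusted p = 0.0663 without WM983A). Its ratio was smaller in WM278, where 1744 normalized counts remained. SPRY4, a Sprouty inhibitor of receptor signalling to RAS, had 1234, 6679 and 3716 normalized counts in the sensitive and 475, 228 and 656 in the resistant libraries, with the lowest resistant level in WM278 (log2 fold change -2.88 ± 0.818 (SE), unadjusted p = 0.0219, and -3.69 with unadjusted p = 0.0131 without WM983A). ETV5, an ETS factor of the same family as ETV1, had 2418, 1526 and 2170.5 normalized counts in the sensitive and 599.6, 449 and 226 in the resistant libraries (log2 fold change -2.34 ± 0.405 (SE), unadjusted p = 0.00354, and -2.51 with unadjusted p = 0.011 without WM983A). DUSP4, a nuclear phosphatase of ERK, had 12041, 5924 and 6942 normalized counts in the sensitive and 4156, 1784 and 1203 in the resistant libraries (log2 fold change -1.94 ± 0.339 (SE), unadjusted p = 0.00373, and -2.13 with unadjusted p = 0.0051 without WM983A). Log2 fold changes of the other members that fell were SPRED1 (-1.98), SPRED2 (-1.28), ETV4 (-3.61), FOSL1 (-1.55), SPRY2 (-2.17) and IER3 (-1.32). In counts of members, leaving out WM983A, WM278 or WM902B gave 0, 2 and 1 higher and 9, 9 and 5 lower.

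The list was not lower as a whole. DUSP5, EPHA2, EPHA4, CCND1, SPRY1 and MYC had ratios of at least 2-fold in opposite directions between lines. CCND1, the cyclin of early G1, had 2793, 18772 and 44518 normalized counts in the sensitive and 9114, 10606 and 8057 in the resistant libraries, so that it was higher in WM983A and lower in WM278 and WM902B. EPHA2, a receptor of ephrins, had 698, 6226 and 73.5 normalized counts in the sensitive and 5350.1, 2459.7 and 323 in the resistant libraries, with only WM278 lower. EGR1, an immediate early gene, did not pass and had 539, 1009 and 841 normalized counts in the sensitive and 1667, 2999.5 and 677 in the resistant libraries.

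Within the cascade itself, 2 of 16 tested genes rose and 0 fell, against 3.98% and 2.65% of all genes. The median log2 fold change was -0.02, and leaving out WM983A, WM278 or WM902B gave 2, 2 and 2 higher and 0, 0 and 0 lower. Those that rose were MAP3K8, described above, and KSR1, a scaffold that brings RAF, MEK and ERK together, which had 64.2, 76.2 and 95.9 normalized counts in the sensitive and 178, 734 and 529 in the resistant libraries (log2 fold change 2.40 ± 0.478 (SE), unadjusted p = 0.00616, and 2.86 with unadjusted p = 0.00237 without WM983A). BRAF had 610.1, 701 and 450.0 normalized counts in the sensitive and 263, 644 and 609 in the resistant libraries, a log2 ratio of -1.21, -0.12 and 0.44. MAP2K1, which encodes MEK1, had 1419.9, 1518 and 1576 normalized counts in the sensitive and 1221, 885 and 778 in the resistant libraries and did not pass (log2 fold change -0.68 ± 0.266 (SE), unadjusted p = 0.0588, and -0.90 with unadjusted p = 0.0215 without WM983A). NRAS and HRAS, the GTPases at the head of the cascade, had log2 ratios of -0.84, -0.26 and 0.01 and of 0.22, -0.84 and -0.72 and did not pass.

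AP-1 factors are dimers of FOS and JUN family proteins that act downstream of ERK, JNK and stress signals. Of 15 tested members, 7 rose and 1 fell, against 3.98% and 2.65% of all genes. The median log2 fold change was 1.26, with list medians of 1.62, 0.98 and 1.08 by line. FOS had 192, 103 and 605 normalized counts in the sensitive and 2765, 4591 and 1164 in the resistant libraries (log2 fold change 3.49 ± 1.11 (SE), unadjusted p = 0.0317, and 3.18 with unadjusted p = 0.123 without WM983A). The change in WM902B was below 2-fold, and those in WM983A and WM278 were 14.4-fold and 44.6-fold. JUN had 564, 4694 and 576 normalized counts in the sensitive and 4525, 6948 and 4771 in the resistant libraries, where sensitive WM278 was as high as the resistant cells of the other lines (log2 fold change 2.24 ± 0.663 (SE), unadjusted p = 0.0249). JUNB, a partner of FOS in these dimers, had 920.2, 813 and 911 normalized counts in the sensitive and 2736, 3140.5 and 1926 in the resistant libraries (log2 fold change 1.53 ± 0.286 (SE), unadjusted p = 0.00484, and 1.51 with unadjusted p = 0.0147 without WM983A). ATF3, a stress-induced factor, had 66.2, 109.5 and 42.9 normalized counts in the sensitive and 206, 503 and 274 in the resistant libraries (log2 fold change 2.16 ± 0.375 (SE), unadjusted p = 0.00362, and 2.43 with unadjusted p = 0.00299 without WM983A). FOSB, JUND and JDP2 rose by log2 fold changes of 2.28, 1.26 and 1.97. FOSL1, a FOS relative that ERK induces and that is also on the ERK output list, fell and had 6006, 6894 and 4419 normalized counts in the sensitive and 2453, 3189.7 and 931 in the resistant libraries (log2 fold change -1.55 ± 0.352 (SE), unadjusted p = 0.00988, and -1.68 with unadjusted p = 0.0192 without WM983A). In counts, leaving out WM983A, WM278 or WM902B gave 5, 5 and 6 higher and 2, 2 and 0 lower. FOS, JUN and JUND did not pass in WM278 and WM902B alone (unadjusted p = 0.123, unadjusted p = 0.0919 and unadjusted p = 0.0692).

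**Figure D3:**
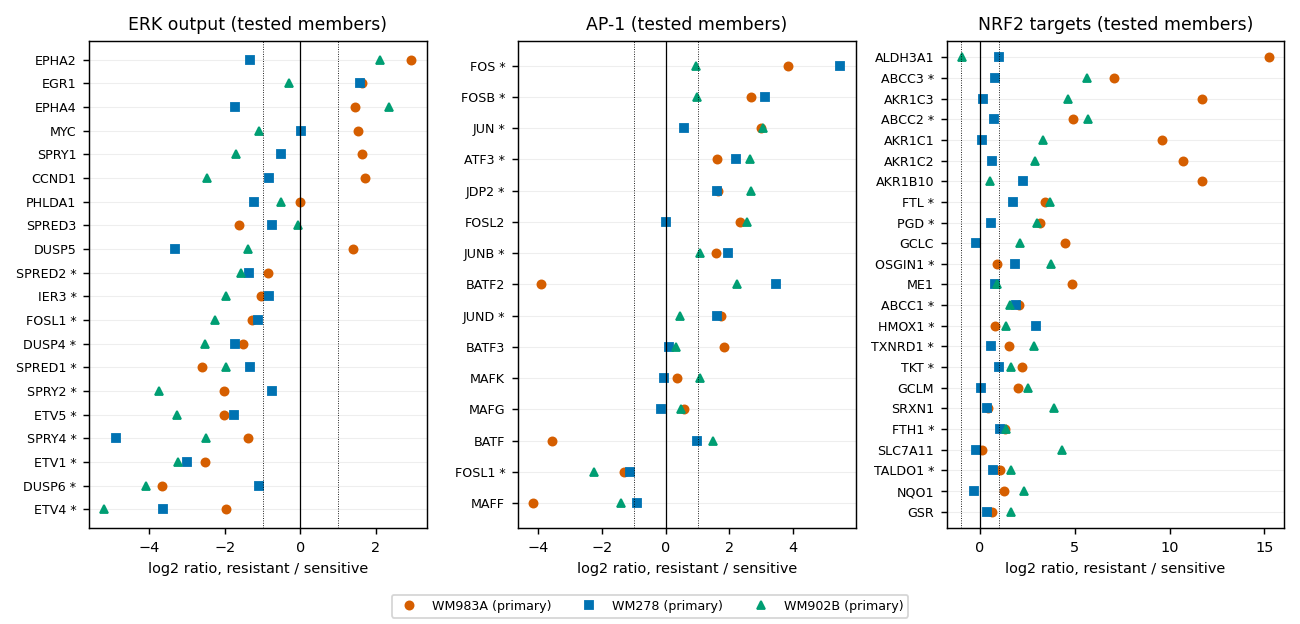
Log2 ratio of resistant over sensitive (x axis) in each primary line for the tested members of the ERK output, AP-1 and NRF2 target lists that are reported here (rows, ordered by fitted log2 fold change); asterisks mark members past the unadjusted thresholds and dotted lines mark 2-fold. The 11 marked ERK genes lie left of 0 in every line, the 11 marked NRF2 targets right of 0, and AKR1B10 lies far to the right in WM983A alone.

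NRF2 is a transcription factor of the response to oxidants and drives genes for glutathione, thioredoxin, NADPH, iron storage and drug efflux. Of 24 tested targets, 12 rose and 0 fell, against 3.98% and 2.65% of all genes, with a median log2 fold change of 2.04. DESeq2 gave 20 higher and the fit without the line as block 18, with 0 lower in both. The size differed by line, with list medians of 2.68, 0.66 and 2.60, and 19, 6 and 21 targets were at least 2-fold higher in WM983A, WM278 and WM902B. FTL, the light chain of ferritin, had 21390.3, 20659.9 and 7921 normalized counts in the sensitive and 227627, 69609.5 and 101369.7 in the resistant libraries (log2 fold change 2.96 ± 0.632 (SE), unadjusted p = 0.008, and 2.71 with unadjusted p = 0.0213 without WM983A). FTH1, the ferritin heavy chain, had 14917, 20040.1 and 20795 normalized counts in the sensitive and 37048, 41709 and 54194 in the resistant libraries and was at least 2-fold higher in each line (log2 fold change 1.24 ± 0.352 (SE), unadjusted p = 0.0215, and 1.22 with unadjusted p = 0.0248 without WM983A). TKT and TALDO1, enzymes of the pentose phosphate pathway, rose by log2 fold changes of 1.60 ± 0.396 (SE) and 1.11 ± 0.325 (SE). HMOX1, which degrades haem, had 1087, 627 and 934 normalized counts in the sensitive and 1877, 4817 and 2388 in the resistant libraries, with its largest ratio in WM278 (log2 fold change 1.67 ± 0.525 (SE), unadjusted p = 0.0303, and 2.14 with unadjusted p = 0.02 without WM983A). TXNRD1, a thioredoxin reductase, had 10878, 19555 and 5225 normalized counts in the sensitive and 31616, 29213 and 37077 in the resistant libraries (log2 fold change 1.63 ± 0.577 (SE), unadjusted p = 0.0436, and 1.70 with unadjusted p = 0.0898 without WM983A). NQO1, a quinone reductase, did not pass and had 17424, 23292 and 19100.1 normalized counts in the sensitive and 41464, 18825 and 96129 in the resistant libraries, lower in resistant WM278. Other members that rose included ABCC1 (1.82), PGD (2.27), OSGIN1 (2.11), ABCC2 (4.0) and ABCC3 (4.86). Without WM983A, 7 members rose, all of them among the 12, and overall leaving out WM983A, WM278 or WM902B gave 7, 11 and 1 higher and 0, 0 and 0 lower.

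Aldo-keto reductases of this list, which reduce aldehydes and ketones, were highest in the library labelled resistant WM983A. AKR1B10 had 14.0, 112 and 261 normalized counts in the sensitive and 51022, 550.5 and 375 in the resistant libraries, and AKR1C3 had 2.0, 382 and 54.1 normalized counts in the sensitive and 9910.0, 417 and 1388 in the resistant libraries. ALDH3A1, another aldehyde dehydrogenase, was at 0 in sensitive WM983A and at 38738 normalized counts in its resistant library, at least 12870.0-fold higher, while the libraries of WM278 held at most 1 count and those of WM902B held 144 and 74.1. AKR1C genes are near-identical copies whose reads can be split between them. These 3 genes were chosen after their values were seen, and none passed the test over the lines.

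NRF2 binds antioxidant response elements, whose core was searched as TGACNNNGC on both strands in the 250 bases before each gene start in the RefSeq promoter set (GRCh38.p14). It was found in 3013 of 27305 promoters (11%). Only 15 of the 24 tested targets had an entry there, which is too few for a share of the list. The letters were in 4 of the 15, namely TXNRD1 and PGD, which rose, and GCLM and ME1, which did not pass. The stretches of TXNRD1 and PGD are shown as the matches among genes that rose. The capitals mark the match, which is a description and not a binding site.
TXNRD1, chr12:104215655-104215713, plus strand: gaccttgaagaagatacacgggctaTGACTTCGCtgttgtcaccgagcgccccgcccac
PGD, chr1:10398838-10398896, plus strand: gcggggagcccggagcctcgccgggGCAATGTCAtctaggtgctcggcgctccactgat
The match began 99 bases before the start of TXNRD1 and 201 bases before that of PGD, a dehydrogenase of the pentose phosphate pathway, which had 2417, 5645 and 1929 normalized counts in the sensitive and 21625, 8297 and 15328 in the resistant libraries.

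ABC transporters move drugs and conjugates out of cells. Of 10 tested members, 5 rose and 0 fell, against 3.98% and 2.65% of all genes, with a median log2 fold change of 1.59. ABCC1, ABCC2 and ABCC3 are also counted among the NRF2 targets that rose, so these lists are not separate results. ABCG2, the pump BCRP, had 121, 257 and 169 normalized counts in the sensitive and 1091, 468 and 762 in the resistant libraries (log2 fold change 2.06 ± 0.541 (SE), unadjusted p = 0.0166, and 1.51 with unadjusted p = 0.0325 without WM983A). ABCC2 and ABCC3, which export conjugates, had log2 ratios of 4.89, 0.71 and 5.69 and of 7.04, 0.77 and 5.66, small in WM278, and did not pass without WM983A (unadjusted p = 0.155 and unadjusted p = 0.147). ABCC6 was low, with 1.0, 2.9 and 1.0 normalized counts in the sensitive and 25.4, 24.1 and 21.6 in the resistant libraries. ABCB1, the pump P-glycoprotein, did not pass and had 96.3, 39.0 and 132 normalized counts in the sensitive and 5.8, 35.7 and 192 in the resistant libraries. ABCB5, a transporter of melanoma cells, was under the count filter and had 214, 2.9 and 186 normalized counts in the sensitive and 2.3, 5.8 and 6.2 in the resistant libraries. Without WM983A, ABCC1, ABCC6 and ABCG2 passed, and for the list leaving out WM983A, WM278 or WM902B gave 3, 6 and 2 higher and 0, 1 and 0 lower.

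The melanocyte program, which covers the regulators, enzymes and structural proteins of pigment cells, moved differently in each line. Of 18 tested members, 3 fell and 0 rose, against 2.65% and 3.98% of all genes. The median log2 fold change of -2.36 covered list medians of -5.21, -0.05 and -2.35 by line. At the same thresholds 11 fell by DESeq2, 8 by limma-voom, 11 with no filter on low counts and 6 without the line as block, with 0 that rose in each. At least 2-fold lower were 17 members in WM983A, 2 in WM278 and 12 in WM902B. SOX10 (ENSG00000100146, GRCh38 chr22:37970686-37987422, minus strand), the lineage factor, had 5215, 4837 and 4865 normalized counts in the sensitive and 97.0, 4147 and 10.3 in the resistant libraries. It was 53.7-fold lower in the library labelled resistant WM983A and 473-fold lower in WM902B, and remained in WM278 (log2 fold change -5.32 ± 2.42 (SE), unadjusted p = 0.0882, and -4.20 with unadjusted p = 0.318 without WM983A). MITF, its target and the main regulator of pigment genes, had 5869, 163 and 6140.2 normalized counts in the sensitive and 515, 219 and 3346 in the resistant libraries, so that resistant WM902B kept MITF transcript while its SOX10 was at 10.3. PMEL, the fibril protein of melanosomes, had 21466, 66.6 and 22064 normalized counts in the sensitive and 477, 64.7 and 108 in the resistant libraries. TYR and MLANA, an enzyme of pigment synthesis and a melanosome antigen, had log2 ratios of -7.03, 0.02 and -6.71 and of -2.89, -0.87 and -7.53. WM278 was low in these pigment genes before selection, so its ratios rest on small counts.

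Members that fell in the test were RAB38, GPR143, a receptor of the melanosome, with 1051, 23.8 and 869 normalized counts in the sensitive and 19.6, 2.9 and 20.6 in the resistant libraries, and SLC24A5, a pigment cell ion exchanger, with 765, 2.9 and 782 normalized counts in the sensitive and 61.2, 1.0 and 8.2 in the resistant libraries. DCT, CAPN3, GPNMB and TYRP1 had ratios of at least 2-fold in opposite directions. GPNMB, a lysosomal and melanosomal glycoprotein, had 11850.2, 1537 and 7673 normalized counts in the sensitive and 213, 11434 and 19626 in the resistant libraries, lower in WM983A and higher in the other lines. For the list, leaving out WM983A, WM278 or WM902B gave 1, 0 and 0 higher and 2, 13 and 3 lower, where the higher member without WM983A was GPNMB. SOX10 and PMEL were chosen after their values were seen. In bulk RNA, fewer cells of a type and less RNA per cell cannot be told apart.

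**Figure D4:**
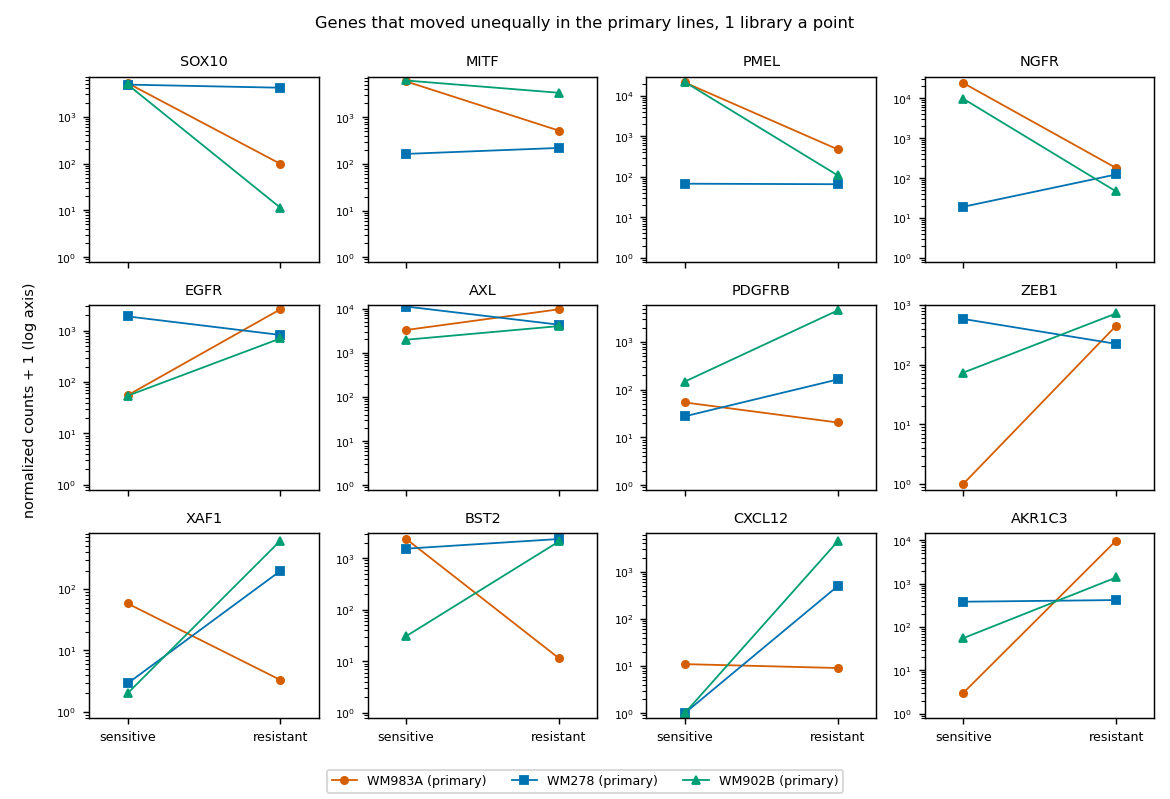
Normalized counts plus 1 on a log axis in the sensitive and resistant library of each primary line (1 library a point, joined within a line) for 12 genes. SOX10, PMEL and NGFR drop steeply in WM983A and WM902B and not in WM278, where PMEL and NGFR started low, XAF1 and CXCL12 end high in WM278 and WM902B and low in WM983A, and EGFR ends at 827 and 709 in WM278 and WM902B from 1903 and 53.1.

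Neural crest genes, carried by an early precursor state of melanocytes, also split by line. Of 8 tested, SOX2 fell and 0 rose (2.65% and 3.98% of all genes), and leaving out WM983A, WM278 or WM902B gave 2, 1 and 0 higher and 2, 3 and 0 lower. List medians were -4.60, 1.26 and -1.12. NGFR, the nerve growth factor receptor of that state, had 24300.4, 18.1 and 9798 normalized counts in the sensitive and 178, 123 and 45.3 in the resistant libraries, lower in WM983A and WM902B and higher in WM278. SOX9 had 0, 45.7 and 15.3 normalized counts in the sensitive and 87.8, 9.7 and 2.1 in the resistant libraries, higher in WM983A alone. L1CAM, an adhesion protein of nerve cells, had 6586, 439.9 and 7550.4 normalized counts in the sensitive and 568, 1116 and 23304 in the resistant libraries, lower in WM983A alone. S100B and FOXD3 had log2 ratios of -7.39, 2.75 and -7.77 and of -4.0, 1.85 and 1.02. AQP1 was under the count filter, with 3.0, 2.9 and 8.2 normalized counts in the sensitive and 11.6, 9.7 and 45.3 in the resistant libraries.

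Genes of the undifferentiated, mesenchymal-like melanoma state had a median log2 fold change of 0.95. Of 17 tested 2 rose and 1 fell (3.98% and 2.65% of all genes), and leaving out WM983A, WM278 or WM902B gave 3, 5 and 0 higher and 1, 2 and 1 lower. CYR61 and CTGF, matricellular targets of the YAP coactivator, rose from 826, 5110.0 and 183 to 3983, 9724 and 3109.9 and from 469, 8006 and 641 to 865, 17589.5 and 2187 normalized counts. CTGF also passed without WM983A (unadjusted p = 0.0125), and CYR61 did not (unadjusted p = 0.0802). TNC, the matrix protein tenascin C, had 22817, 33672 and 17413 normalized counts in the sensitive and 334, 6382 and 429 in the resistant libraries (log2 fold change -4.71 ± 1.01 (SE), unadjusted p = 0.00818, and -3.87 with unadjusted p = 0.0241 without WM983A). AXL, a receptor kinase that marks this state, had 3277, 11128 and 1973 normalized counts in the sensitive and 9649, 4321 and 4019 in the resistant libraries, higher in WM983A and WM902B and lower in WM278, the line with the highest starting level. WNT5A, a secreted ligand, had 1679.8, 5459 and 760.2 normalized counts in the sensitive and 34.7, 4522 and 5587 in the resistant libraries, and CAV1 and TCF4 likewise had opposite ratios.

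Of 19 receptor tyrosine kinases tested, 0 rose and 0 fell in edgeR's test over the 3 lines, against 3.98% and 2.65% of all genes. The median log2 fold change was -0.18, and 7 had ratios of at least 2-fold in opposite directions. FGFR1, a receptor of fibroblast growth factors, had an unadjusted p = 0.0106 but a log2 fold change of 0.97 ± 0.225 (SE), just under 2-fold. It was the only member at an unadjusted p of at most 0.05. By the same thresholds DESeq2 gave 3 higher and 4 lower, limma-voom gave 1 and 1, and leaving out WM983A, WM278 or WM902B gave 1, 2 and 1 higher and 3, 2 and 2 lower. EGFR, the receptor of epidermal growth factor, had 54.2, 1903 and 53.1 normalized counts in the sensitive and 2628, 827 and 709 in the resistant libraries, higher in WM983A and WM902B and lower in WM278. PDGFRB, a receptor of platelet-derived growth factor, had 53.2, 26.7 and 147 normalized counts in the sensitive and 19.6, 163 and 4597 in the resistant libraries, lower in WM983A and 31.3-fold higher in WM902B. Without WM983A it had a log2 fold change of 3.85 with unadjusted p = 0.0111. MET, the receptor of hepatocyte growth factor, had 381, 903 and 311 normalized counts in the sensitive and 3870.2, 371 and 71.0 in the resistant libraries, higher in WM983A alone. PDGFRA had 8.0, 105 and 32.7 normalized counts in the sensitive and 4.6, 40.6 and 1585 in the resistant libraries, higher in WM902B alone. MERTK, a relative of AXL, had 17.1, 1.0 and 784 normalized counts in the sensitive and 86.6, 0 and 16.5 in the resistant libraries. MET and PDGFRA were thus higher in different lines, whereas EGFR was higher in both WM983A and WM902B.

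Adhesion and epithelial-mesenchymal regulators gave 3 that fell and 0 that rose of 17 tested (2.65% and 3.98% of all genes), and leaving out WM983A, WM278 or WM902B gave 1, 0 and 0 higher and 2, 0 and 3 lower. TWIST1, a mesenchymal regulator, had 818, 666 and 796 normalized counts in the sensitive and 313, 204 and 445 in the resistant libraries (log2 fold change -1.32 ± 0.293 (SE), unadjusted p = 0.00921, and -1.28 with unadjusted p = 0.0234 without WM983A). ITGB3 and ITGA6, integrin chains, had log2 ratios of -4.03, -3.70 and -0.55 and of -1.22, -2.12 and -5.29. ZEB1, a repressor of epithelial genes, was at 0 in sensitive WM983A and had 0, 583 and 72.5 normalized counts in the sensitive and 449, 222 and 722 in the resistant libraries, higher in WM983A and WM902B and lower in WM278. ZEB2, its relative in melanocytes, had 1868, 1172 and 1618 normalized counts in the sensitive and 92.4, 2467 and 1722 in the resistant libraries. CDH1, the epithelial cadherin, was under the count filter and had 10.0, 1.0 and 4.1 normalized counts in the sensitive and 902, 0 and 2.1 in the resistant libraries, present in the library labelled resistant WM983A alone. SNAI2 and ITGA2 also had opposite ratios, of -4.87, 1.74 and 0.94 and of 0.55, -2.24 and 1.29.

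Extracellular matrix genes gave 5 that rose and 2 that fell of 26 tested, against 3.98% and 2.65% of all genes. Their median log2 fold change was 0.07, and leaving out WM983A, WM278 or WM902B gave 6, 4 and 4 higher and 1, 2 and 2 lower. COL1A1, the main chain of type I collagen, had 12, 80.0 and 174 normalized counts in the sensitive and 90.1, 1152 and 18759 in the resistant libraries, 108-fold higher in WM902B (log2 fold change 4.49 ± 0.974 (SE), unadjusted p = 0.00838, and 5.31 with unadjusted p = 0.00948 without WM983A). LAMA5, a laminin chain of basement membranes, had 83.3, 96.2 and 235 normalized counts in the sensitive and 12749, 793 and 8269.7 in the resistant libraries (log2 fold change 5.14 ± 1.05 (SE), unadjusted p = 0.00666, and 4.10 with unadjusted p = 0.00685 without WM983A). COL5A1, COL18A1 and FBLN1 rose by log2 fold changes of 5.32 ± 1.82 (SE), 2.13 ± 0.504 (SE) and 5.28 ± 1.88 (SE), and COL5A1 did not pass without WM983A (unadjusted p = 0.139). NID1, a basement membrane linker, fell by 1.51 ± 0.532 (SE) on the log2 scale. Among 22 proteases and inhibitors, MMP2 rose and 5 fell, and leaving out WM983A, WM278 or WM902B gave 4, 1 and 0 higher and 4, 8 and 3 lower. PLAUR, the urokinase receptor, had 1576, 2589 and 1370.5 normalized counts in the sensitive and 328, 214 and 262 in the resistant libraries (log2 fold change -2.75 ± 0.38 (SE), unadjusted p = 0.00148, and -2.99 with unadjusted p = 0.00371 without WM983A). MMP2, a gelatinase, had 604, 873 and 4389 normalized counts in the sensitive and 842, 2583 and 13639 in the resistant libraries (log2 fold change 1.23 ± 0.364 (SE), unadjusted p = 0.0253, and 1.60 with unadjusted p = 0.00448 without WM983A). MMP14, which activates MMP2, had 10849.7, 7922 and 7525 normalized counts in the sensitive and 431, 3048 and 9869.9 in the resistant libraries and did not pass. TIMP3, a metalloproteinase inhibitor, had 26236, 44403 and 27144 normalized counts in the sensitive and 521, 25276 and 201 in the resistant libraries (log2 fold change -4.91 ± 1.8 (SE), unadjusted p = 0.0484, and -3.93 with unadjusted p = 0.192 without WM983A). The other members that fell, MMP16, SERPINE2 and TIMP1, had log2 fold changes of -4.22, -2.15 and -1.19.

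Interferon-stimulated genes set WM983A apart from the other lines. The list medians were -0.91, 1.34 and 2.38, and 16 of 18 tested members were at least 2-fold higher in WM902B, 13 in WM278 and 1 in WM983A. Over the 3 lines 2 rose and 0 fell, against 3.98% and 2.65% of all genes, and without WM983A 12 rose and 0 fell, against 5.96% and 3.54% of all genes in that fit. Without WM278 or WM902B, 1 and 1 rose and 0 and 0 fell. OAS1, which senses double-stranded RNA, had 188, 55.2 and 100 normalized counts in the sensitive and 522, 232 and 427 in the resistant libraries and rose (log2 fold change 1.87 ± 0.319 (SE), unadjusted p = 0.00339, and 2.08 with unadjusted p = 0.00405 without WM983A). IFI27, a mitochondrial protein that interferon induces, had 2.0, 39.0 and 4.1 normalized counts in the sensitive and 3.5, 512 and 311 in the resistant libraries and rose (log2 fold change 3.98 ± 1.17 (SE), unadjusted p = 0.0242, and 4.72 with unadjusted p = 0.00671 without WM983A). ISG15 and IFIT1, effectors of the antiviral response, had log2 ratios of -0.32, 1.38 and 1.89 and of 0.05, 2.31 and 2.78. XAF1, a proapoptotic interferon target, had 57.2, 1.9 and 1.0 normalized counts in the sensitive and 2.3, 197 and 615 in the resistant libraries (log2 fold change 5.19 ± 3.99 (SE), unadjusted p = 0.259, and 7.80 with unadjusted p = 0.00106 without WM983A). BST2, which tethers viruses at the cell surface and was chosen after its values were seen, had 2363, 1525 and 29.6 normalized counts in the sensitive and 10.4, 2349.6 and 2114 in the resistant libraries, where resistant WM902B reached the level of WM278. IFI44L, IFIT2, IFIT3 and OAS2 were lower in WM983A and higher in both other lines.

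Antigen presentation genes followed the same order, with list medians of -1.72, 1.24 and 1.69. Over the 3 lines 0 of 15 tested rose or fell in edgeR's test (3.98% and 2.65% of all genes), and 0 had an unadjusted p of at most 0.05. DESeq2 gave 2 higher and 1 lower, limma-voom gave 2 and 0, and leaving out WM983A, WM278 or WM902B gave 5, 0 and 0 higher and 0, 3 and 0 lower. B2M, the light chain of class I molecules, had 8893, 5018 and 4131 normalized counts in the sensitive and 2701, 11846 and 27430.2 in the resistant libraries (log2 fold change 0.84 ± 1.07 (SE), unadjusted p = 0.475, and 1.98 with unadjusted p = 0.0231 without WM983A). HLA-B, a class I heavy chain, had log2 ratios of -4.71, 1.68 and 4.16. CD74, the invariant chain of class II, had 26077, 10914 and 1231 normalized counts in the sensitive and 27.7, 21869 and 437 in the resistant libraries, higher in WM278 alone, as were HLA-DRA and HLA-DRB1. TAP1 and PSMB8 were listed at 0 in every library, and HLA genes share reads with near-identical copies, so values from this region are uncertain.

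Inflammatory genes were mixed, with 3 that rose and 4 that fell of 21 tested (3.98% and 2.65% of all genes), and leaving out WM983A, WM278 or WM902B gave 6, 4 and 3 higher and 5, 4 and 3 lower. CSF1, the macrophage growth factor, had 473, 777 and 205 normalized counts in the sensitive and 2234, 3626 and 2484 in the resistant libraries (log2 fold change 2.67 ± 0.406 (SE), unadjusted p = 0.00215, and 2.90 with unadjusted p = 0.00553 without WM983A). IL32 and BCL3 rose by log2 fold changes of 5.99 ± 0.922 (SE) and 1.17 ± 0.285 (SE). LIF, a cytokine of the IL-6 family, had 6357, 8538 and 3674 normalized counts in the sensitive and 1026, 3037 and 526 in the resistant libraries (log2 fold change -2.32 ± 0.397 (SE), unadjusted p = 0.00342, and -2.15 with unadjusted p = 0.0131 without WM983A). CCL20 had 67.2, 449 and 75.5 normalized counts in the sensitive and 1.2, 34.8 and 6.2 in the resistant libraries (log2 fold change -4.11 ± 0.605 (SE), unadjusted p = 0.00189, and -3.65 with unadjusted p = 0.00136 without WM983A), and CXCL8, a neutrophil chemokine, had 5265, 14730.1 and 150.0 normalized counts in the sensitive and 149, 5832 and 44.3 in the resistant libraries (log2 fold change -2.63 ± 0.968 (SE), unadjusted p = 0.0491, and -1.54 with unadjusted p = 0.00752 without WM983A). IL1B, an inflammatory cytokine, also fell and had log2 ratios of -6.87, -2.64 and -2.59. NFKBIA, the inhibitor of NF-kB, had an unadjusted p = 0.0384 at a log2 fold change of 0.81 ± 0.274 (SE), under 2-fold, and TNFAIP3 had ratios of -3.28, 0.26 and 1.09. CXCL12, chosen after its values were seen, was at 0 in sensitive WM278 and WM902B and had 10.0, 0 and 0 normalized counts in the sensitive and 8.1, 494 and 4391 in the resistant libraries.

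Genes of TGF-beta and BMP signalling gave 3 that rose and 1 that fell of 20 tested (3.98% and 2.65% of all genes), and leaving out WM983A, WM278 or WM902B gave 5, 6 and 4 higher and 1, 1 and 2 lower. SMAD6, an inhibitor of BMP signalling, had 318, 141 and 278 normalized counts in the sensitive and 957, 903 and 1261 in the resistant libraries (log2 fold change 2.14 ± 0.331 (SE), unadjusted p = 0.0023, and 2.43 with unadjusted p = 0.0018 without WM983A). ID3 and LTBP4, a target of BMP and a binding protein of latent TGF-beta, rose by log2 fold changes of 1.10 ± 0.284 (SE) and 1.45 ± 0.279 (SE), and the ligand TGFB3 fell by 1.78 on the log2 scale. TGFBI had ratios of -3.76, -0.57 and 1.82 and SMAD7 of 1.47, -0.03 and 1.56. In axon guidance, 4 rose and 2 fell of 24 tested, and leaving out WM983A, WM278 or WM902B gave 3, 4 and 2 higher and 4, 2 and 2 lower. SEMA3C, a secreted semaphorin, had 280.0, 2297 and 293 normalized counts in the sensitive and 2214, 6347 and 1659.9 in the resistant libraries (log2 fold change 2.31 ± 0.397 (SE), unadjusted p = 0.00346, and 1.98 with unadjusted p = 0.00906 without WM983A). NTN4, SEMA3E and SEMA4G rose by 2.90 ± 0.931 (SE), 2.45 ± 0.827 (SE) and 1.73 ± 0.63 (SE) on the log2 scale, and SEMA6A and SLIT2 fell (log2 fold changes -2.32 ± 0.83 (SE) and -3.06 ± 1.13 (SE)). NRP1, a semaphorin coreceptor, had ratios of 2.16, -1.25 and 1.48.

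Proliferation genes had list medians of 0.00, -0.90 and -0.82. Over the 3 lines 3 of 24 tested fell and 0 rose (2.65% and 3.98% of all genes), and leaving out WM983A, WM278 or WM902B gave 0, 0 and 0 higher and 10, 1 and 1 lower. E2F1, which drives entry into S phase, had 3300.5, 2516 and 1431 normalized counts in the sensitive and 1496, 1139 and 442 in the resistant libraries (log2 fold change -1.33 ± 0.255 (SE), unadjusted p = 0.00524, and -1.42 with unadjusted p = 0.00922 without WM983A). RRM2 and CCNE2 fell by 1.08 and 1.13 on the log2 scale. MKI67, a marker of cycling cells, had 5727, 7223 and 6279 normalized counts in the sensitive and 7176, 2737 and 3626 in the resistant libraries, higher in WM983A and lower in the other lines. MCM2 and TOP2A, which act in DNA replication and chromosome untangling, had ratios of 0.90, -1.29 and -1.73 and of 1.36, -0.65 and -0.31. Among cell cycle regulators, CDKN2B and CDKN2D, inhibitors of CDK4 and CDK6, fell by 2.19 and 1.04 on the log2 scale and 0 of 13 tested rose, and leaving out WM983A, WM278 or WM902B gave 0, 0 and 0 higher and 1, 2 and 1 lower. CDKN1A, the inhibitor p21, had 396, 9074 and 588 normalized counts in the sensitive and 1236, 5025 and 642 in the resistant libraries. In the BCL-2 family, BCL2L11, the proapoptotic BIM, had 298, 162 and 216 normalized counts in the sensitive and 522, 269 and 694 in the resistant libraries and rose (log2 fold change 1.07 ± 0.328 (SE), unadjusted p = 0.0282, and 1.21 with unadjusted p = 0.0355 without WM983A). BCL2, its antiapoptotic partner, had 380.3, 528 and 226 normalized counts in the sensitive and 58.9, 393 and 62.8 in the resistant libraries and fell (log2 fold change -1.66 ± 0.562 (SE), unadjusted p = 0.0383, and -1.12 with unadjusted p = 0.0914 without WM983A). Of 13 members tested these were the ones that passed, and leaving out WM983A, WM278 or WM902B gave 2, 0 and 0 higher and 1, 3 and 0 lower. MCL1, another antiapoptotic member, had 3870.4, 6780.0 and 6356 normalized counts in the sensitive and 3774, 3025 and 5355 in the resistant libraries. Of 15 tested genes of sterol and fatty acid synthesis 1 rose and 1 fell, near the 3.98% and 2.65% of all genes, and leaving out WM983A, WM278 or WM902B gave 1, 0 and 1 higher and 1, 1 and 0 lower. HMGCS1 rose (log2 fold change 1.04 ± 0.262 (SE), unadjusted p = 0.0144) and FASN fell (log2 fold change -1.49 ± 0.491 (SE), unadjusted p = 0.0349, and -2.04 with unadjusted p = 0.00247 without WM983A).

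Markers of other cell types were examined because a culture can hold other cells. Endothelial markers summed to 5.7 to 46.9 normalized counts in sensitive and 1.0 to 42.2 in resistant libraries, and leukocyte markers to 16.2 to 45.2 and 1.9 to 14.4. Of the 5 leukocyte markers LYZ alone passed the count filter and fell, with 36.1, 15.2 and 12.2 normalized counts in the sensitive and 1.2, 1.0 and 0 in the resistant libraries. Keratinocyte markers summed to 522.5 to 873.1 and 587.6 to 1306.6, nearly all from KRT10, with KRT1, KRT5, KRT14 and DSG3 at or under 16.4 in each library. Fibroblast markers summed to 1354, 296.1 and 936.8 in the sensitive and to 137.5, 2570 and 24313 in the resistant libraries, through COL1A1 and PDGFRB in WM902B and FAP and COL1A1 in WM278. DCN and LUM, also among these markers, were at 0, 16.4 and 67.9 and 5.8, 25.1 and 433 in the resistant libraries. Of 6 tested fibroblast markers, 1, 5 and 3 were at least 2-fold higher and 5, 0 and 0 at least 2-fold lower. The part of other cells in the matrix results was not tested.

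The resistance change of the primary lines was then set against that of the metastatic lines in a fit of all 10 libraries with line as a block. WM983A shares a patient with WM983B, and WM278 with WM1617. The fit treats these lines as independent, so its p-values do not account for the shared patients. Of 17287 genes, 0 (0%) differed after adjustment in edgeR (smallest adjusted p = 1) and 309 (1.79%) passed an unadjusted p of at most 0.05 and a 2-fold difference, 105 with the higher change in the primary and 204 in the metastatic lines. Among primary lines left out, only WM983A evened this split, which was 268 and 289 without WM983A. It was 173 and 376 without WM278 and 116 and 192 without WM902B. With either metastatic line left out, a single line of that origin remains, so such counts are not given and the split is uncertain. At an unadjusted p of at most 0.05 alone there were 319. DESeq2 called 22 after adjustment and limma-voom 0. WM983B and WM1617 differed between themselves, since resistant WM1617 had 528 genes at least 2-fold higher and 733 lower, and resistant WM983B had 2942 and 1968. Of the 380 genes higher in all 3 primary lines, 287 were at least 2-fold higher in WM983B and 24 in WM1617. Of the 241 lower genes, 141 and 16 were lower there. List medians in WM983B and WM1617 were -0.25 and 0.09 for ERK output, 0.98 and 0.08 for NRF2 targets, 1.41 and 0.11 for AP-1 and 1.81 and 0.07 for interferon-stimulated genes, and differences of list medians between origins were not tested.

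The genes with the smallest p of this difference had fallen in the primary lines but had ratios near or above 0 in both metastatic lines. SH2B3, given above for the primary lines, had 3399.9 and 3626 in the sensitive and 3956 and 4721 in the resistant libraries of WM983B and WM1617 (difference -3.53 ± 0.441 (SE) on the log2 scale, unadjusted p = 0.000259). ETV1 had 1138 and 961 in the sensitive and 949 and 1136 in the resistant libraries of WM983B and WM1617 (difference -2.91 ± 0.412 (SE) on the log2 scale, unadjusted p = 0.000498). EGR3 had 236 and 594 in the sensitive and 218 and 1072 in the resistant libraries of WM983B and WM1617 (difference -6.77 ± 1.03 (SE) on the log2 scale, unadjusted p = 0.000713). GPR143 had 224 and 1159 in the sensitive and 542 and 1239 in the resistant libraries of WM983B and WM1617 (difference -5.71 ± 0.875 (SE) on the log2 scale, unadjusted p = 0.000749). CHST2, a sulfotransferase of glycans, had 1256, 1247 and 891 normalized counts in the sensitive and 50.8, 172 and 104 in the resistant libraries of the primary lines and 386 and 268 in the sensitive and 706 and 387 in the resistant libraries of WM983B and WM1617 (difference -4.20 ± 0.652 (SE) on the log2 scale, unadjusted p = 0.000801). For SH2B3, ETV1, EGR3 and CHST2 the primary log2 ratios were at most -2.52 and the metastatic ones at least -0.26. In the other direction, HSPA2, a heat shock protein, had 269, 104 and 19.4 normalized counts in the sensitive and 799.5, 396 and 90.6 in the resistant libraries of the primary lines and 404 and 1.1 in the sensitive and 176 and 0.9 in the resistant libraries of WM983B and WM1617 (difference 2.93 ± 0.589 (SE) on the log2 scale, unadjusted p = 0.0029). TAF9, a subunit of the general transcription factor TFIID, had log2 ratios of 1.09, 0.54 and 1.31 in the primary and -0.74 and -1.03 in the metastatic lines (difference 1.88 ± 0.408 (SE) on the log2 scale, unadjusted p = 0.00417). The 3 remaining genes, RP11-629N8.5, RP11-841O20.2 and CTB-167B5.1, are not protein-coding and were low, at or under 107.1 normalized counts in every library.

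**Figure D5:**
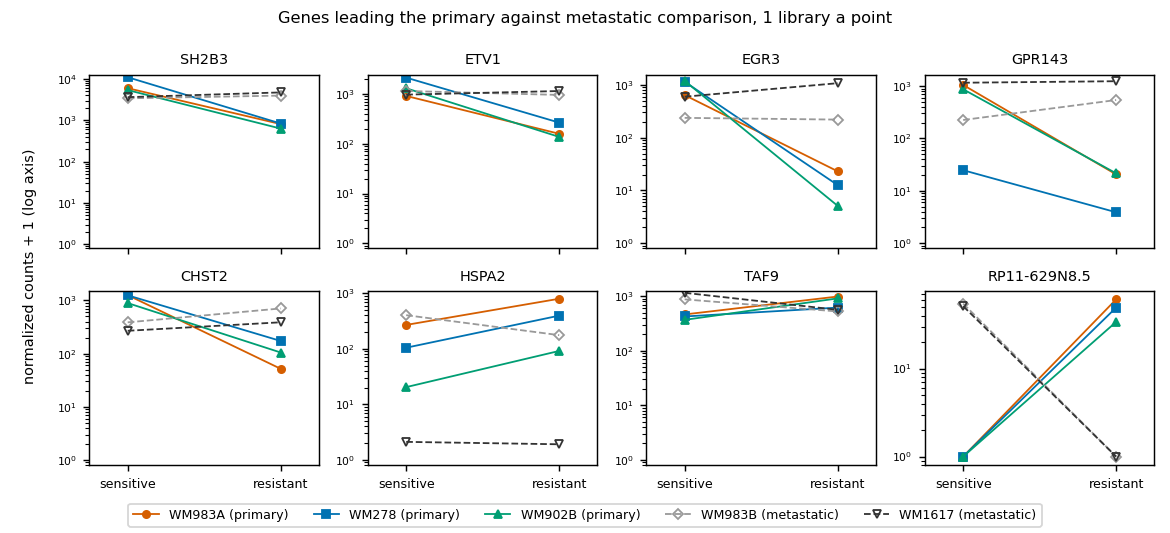
Normalized counts plus 1 on a log axis in the sensitive and resistant library of each line (1 library a point; filled symbols and full lines for primary, open symbols and dashed lines for metastatic lines) for 8 genes leading the comparison of primary with metastatic lines. SH2B3, ETV1, EGR3 and CHST2 drop in the 3 primary lines and stay within 2-fold in WM983B and WM1617, and RP11-629N8.5 appears in the resistant primary and disappears in the resistant metastatic libraries.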

How the data were processed

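Per the study's methods and the submitters' processing notes, the authors mapped the reads with HISAT2 against GRCh38, then counted them per gene in the program StrandNGS. Versions, annotation and the strand used in counting are not given in the sources used here. The deposited raw columns hold estimated counts per Ensembl gene for 57955 genes, with fractions, which were rounded to whole numbers. The deposited normalized columns hold log2 ratios to the sensitive library of a line after DESeq scaling by the authors. One of them was used, to recover 455 raw values of sensitive WM983B that a spreadsheet had turned into dates.

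Gene positions came from GENCODE release 44 (GRCh38), matched by identifier for 56911 genes. Counts of the 6 primary-line libraries were scaled by TMM, filtered with filterByExpr and tested with the two-sided quasi-likelihood test of edgeR 4.0.16 (R 4.3.3), with cell line as block, which left 2 residual degrees of freedom. Fits of these libraries with 1 line left out had fewer. Adjustment was by Benjamini-Hochberg over all genes tested. Unadjusted p-values in the text come from this fit, from the same fit without WM983A or, for the difference between origins, from the contrast described next. All such p-values measure the spread between lines, with 1 library per line and state. Each SE is the absolute log2 fold change divided by the square root of the F statistic, so it adds nothing to the p-value. Alternatives used DESeq2 1.42.0 and limma 3.58.1, and the edgeR fits of the 6 and of the 10 libraries were run on simulated counts. With 6 libraries, 29 of 197 genes changed 4-fold passed adjustment, as did 183 of 191 changed 16-fold. The simulated spread followed the measured trend over expression, not the spread of each gene, and each change was the same in every line. These shares therefore do not say how many changed genes the test finds in these data. In these runs 676 and 621 unchanged genes passed the unadjusted thresholds, so many of the 1169 genes above may be unchanged. The fit of 10 libraries was simulated at a low spread only. That difference between primary and metastatic lines was a contrast in a fit of 10 libraries. Log2 ratios within a line added 1 to normalized counts, and bounds set a library at 0 to 3 counts. An exact permutation of 3 against 3 libraries cannot go below p = 0.1 and was not used.

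The lines pair the libraries because each resistant line came from its sensitive parent. Deviations from the group means of the 2 libraries of a line correlated at 0.00658 in WM983A, 0.538 in WM278 and 0.455 in WM902B. Between lines the average was -0.166. Deviations from a group mean cancel, so this average is largely fixed by the values within lines and is no separate evidence.

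Named genes were the 15 with the smallest p in each direction among genes at least 2-fold changed in all 3 lines, the first 3 of each list with up to 5 that passed and up to 5 with opposite ratios, and 5 in each direction of the difference. Any gene that this rule did not give is said in the text to have been picked with its values known. The 25 gene lists and the lines compared were chosen with earlier results of these data known. Fold changes and p-values of the study were not used. A few list members are counted but not reported here by name.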

Additional observations from a re-analysis of the deposited data

Results flagged for a closer look

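RP11-629N8.5 (ENSG00000280320, GRCh38 chr12:64696191-64696550, minus strand) moved in opposite directions in the primary and the metastatic lines. Normalized counts were 0 in sensitive and 60.1, 48.3 and 32.9 in resistant WM983A, WM278 and WM902B, and 53.6 and 50.1 in sensitive and 0 in resistant WM983B and WM1617. The fitted log2 difference of the resistance change was 17.3 (edgeR, unadjusted p = 0.00206, adjusted p = 1), a value that depends on how zeros are treated and is no measure of size. The gene is annotated as a transcript awaiting experimental evidence and lies within the interval of RASSF3, and the strand of counting is not known here, so reads of the 2 genes cannot be told apart. The cause was not tested.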

How the results depend on the processing

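With 3 lines, the count of genes past a threshold depended on the test. After adjustment edgeR gave 0 genes, also under every other scaling, filter and left-out line tried, whereas the DESeq2 Wald test gave 615. For the difference between primary and metastatic lines these counts were 0 and 22. Past the unadjusted thresholds, 1169 genes became 1852 with no filter on low counts and 635 to 1726 with 1 line left out, the lowest without WM902B and the highest without WM983A. Without the line as replicate block 1025 genes passed, of which 748 were shared with the blocked fit. The 309 genes of the difference became 529 with no filter, 516 by DESeq2, 161 without the replicate block and 308 to 557 with 1 primary line left out. Genes at least 2-fold changed in all 3 lines numbered 621, and 1437 at a 1.5-fold and 121 at a 4-fold threshold. Of 114 named genes past the unadjusted thresholds, 114 remained under DESeq2 size factors, 110 under upper quartile scaling, 113 under DESeq2 and under limma-voom, and 80 without the block. Without WM983A, WM278 or WM902B, 87, 84 and 73 remained, and 0 turned direction under any of these alternatives. Of all 1169 genes, 723, 644 and 408 remained in these 3 fits. The alternatives reuse the libraries in which the genes passed, so keeping the direction was largely assured. A stricter filter of 10 counts in every library left 82 of the 114 named genes to test, all of which passed. Among list counts not given above under DESeq2, members higher went from 3 to 7 in the NF-kB and in the TGF-beta lists and from 2 to 4 in the interferon and undifferentiated lists, and members lower from 1 to 3 in the neural crest and BCL-2 lists, from 2 to 4 in the matrix list and from 3 to 5 in the adhesion list. Without the block, members lower went from 5 to 2 in the protease list and from 3 to 1 in the proliferation and adhesion lists, and axon guidance from 4 higher and 2 lower to 1 and 0. In these libraries 3 counts correspond to 0.177 to 0.219 CPM in the primary lines, so lower levels could not be compared.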
